A study of Homo sapiens with 3 samples.

Results

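THP-1 macrophages that had received DMD before imiquimod (IMQ) were compared with untreated THP-1 macrophages, gene by gene, on 1 array per condition. The comparison used 2 of the 3 arrays of the study, labelled Ctrl and IMQ+DMD, and took in every gene whose probe was well above background on the brighter array. It asks how far the cells stood from the untreated state when DMD was present. The third array, IMQ alone, is given beside single genes to place them and was not the subject of the comparison.

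THP-1 is a human promonocytic leukemia cell line. All cells were made into macrophages with the phorbol ester PMA at 100 ng/ml for 24 to 36 h and rested overnight in fresh medium, so the Ctrl cells carried the PMA treatment as well. DMD is a methylbenzene diol with dimethoxy substitution, isolated from the fungus Antrodia cinnamomea, and IMQ is a synthetic ligand of Toll-like receptor 7 (TLR7). The array titles give 4 h for each condition and write the third treatment as IMQ+X, which was read as DMD because the labels name no other compound. There was no array of DMD alone, so the share of a difference that belongs to DMD and the share that belongs to IMQ cannot be told apart from Ctrl and IMQ+DMD. THP-1 is 1 leukemic line, and nothing says that the arrays held cells of separate cultures.

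A macrophage that senses a TLR ligand passes the signal through the adaptor MyD88 to the NF-κB transcription factors and to the MAP kinases. Chemokines, cytokines and early transcription factors are among the first genes transcribed, followed by inhibitors such as IκBα and A20 that end the response. NRF2 is a transcription factor of a separate arm, which turns on antioxidant and detoxifying enzymes when reactive compounds modify its partner KEAP1.

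Of 43317 gene names on the array, 33733 had a probe that could be compared. The Ctrl and IMQ+DMD arrays had 72% and 71.9% of probes well above background. No spot was saturated. Precision is limited by having 1 array per condition. There is no replicate array, hence no test and no p-value. The noise that could be measured was that between repeated spots of a probe on 1 array, given below as a spot-noise SD. For a probe with 1 spot, this SD was taken from repeated probes of similar brightness. Variation between cultures, RNA preparations and hybridizations was not measured, so the SD leaves it out. The labelled cell type was checked against its markers. All 14 macrophage and monocyte markers found on the array were well above background on every array, CSF1R at 17.78 log2 units on Ctrl and 17.23 on IMQ+DMD. Markers of other cell types were not all absent. Of 6 fibroblast markers, 3 were well above background on each array, PDGFRA highest at 9.07 on Ctrl and 7.79 on IMQ+DMD, while COL1A2, COL3A1 and LUM were not on any. Of 6 keratinocyte markers, 5 were well above background on Ctrl and 4 on IMQ+DMD, with KRT10 at 14.19 and 14.14 and the others below 6. Other lists had bright members too. On Ctrl, CD79A of B cells stood at 12.02, GNLY of NK cells at 12.83 and ELANE of neutrophils at 11.15. Since 72% of probes on Ctrl were well above background, this mark separates cell types poorly, also for the macrophage list. All cultures were of the THP-1 line, and the source of these signals was not tested.

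At a threshold of 2-fold, 1348 of 43689 compared probes (3.09%) were higher on the IMQ+DMD array and 2145 (4.91%) were lower. By gene, using the brightest compared probe of each, 1025 (3.04%) were at least 2-fold higher and 1629 (4.83%) at least 2-fold lower, around a median difference of 0.05 log2 units. Probes that were higher made up 38.6% of those past 2-fold. That share was 13% with no normalization between arrays and 17% when the arrays were scaled to their spike-in controls, because both place the median probe lower, at -0.33 and -0.25 log2 units. At 8-fold the order turned, with 68 genes higher and 26 lower, and at 32-fold there were 11 higher and 1 lower.

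**Figure D1:**
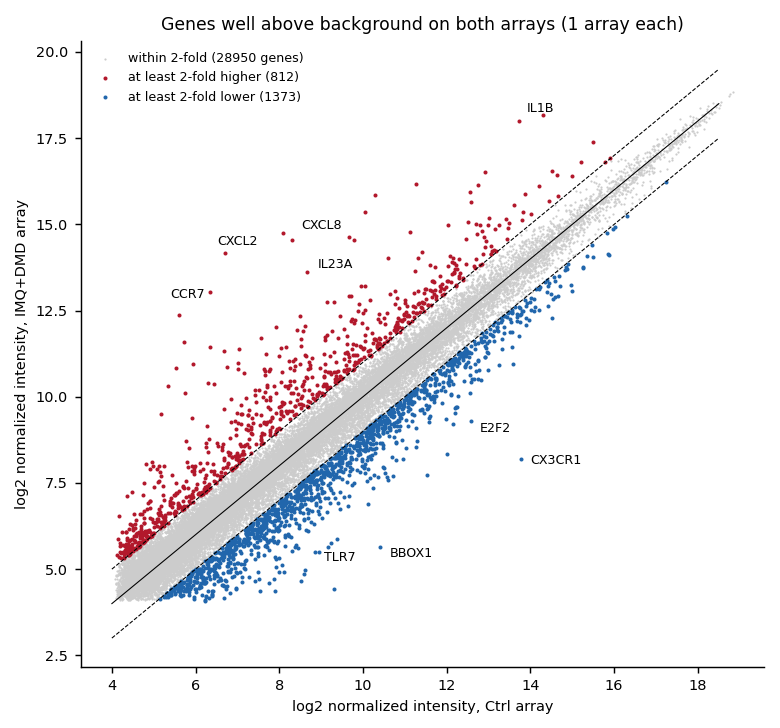
Log2 normalized intensity on the IMQ+DMD array (y axis) against the Ctrl array (x axis) for the 31135 genes well above background on both, 1 point per gene. The solid line marks equal levels and the dashed lines 2-fold; 812 genes lie above the upper dashed line and 1373 below the lower one, and the points farthest from the line are above it.

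The leading genes on the higher side were chemokines that draw neutrophils. Their promoters are shown first because the 4 leading members lie in 1 cluster on chromosome 4 and share a match to the binding motif of NF-κB close to the start site. Each line below gives 120 bases before the transcription start from RefSeq (GRCh38.p14), 5′ to 3′ in the direction of the gene, and the capitals mark matches to GGNNTTTCC on either strand.
CXCL1 (chr4:73869273-73869392, plus strand): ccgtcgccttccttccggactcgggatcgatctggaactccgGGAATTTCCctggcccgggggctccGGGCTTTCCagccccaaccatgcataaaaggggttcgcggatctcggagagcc
CXCL2 (chr4:74099196-74099315, minus strand): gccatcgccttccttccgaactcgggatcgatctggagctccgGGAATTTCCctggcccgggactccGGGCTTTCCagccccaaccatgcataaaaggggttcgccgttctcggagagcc
CXCL3 (chr4:74038690-74038809, minus strand): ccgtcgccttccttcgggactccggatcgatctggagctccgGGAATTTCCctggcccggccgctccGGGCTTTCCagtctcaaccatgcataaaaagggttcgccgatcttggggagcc
CXCL8 (chr4:73740449-73740568, plus strand): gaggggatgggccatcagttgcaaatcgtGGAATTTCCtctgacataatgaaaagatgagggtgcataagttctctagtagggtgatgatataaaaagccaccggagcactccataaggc
The first match spelled GGAATTTCC in all 4 genes. CXCL1, CXCL2 and CXCL3 also shared GGGCTTTCC downstream of it, and these promoters resemble each other over most of the stretch. Over windows of 250 bases before to 50 after the start, this motif occurred in 6.26% of 35116 RefSeq promoters and in 8.6% of the 14018 compared genes with a promoter entry. It occurred in 29 of 123 genes (23.6%) at least 4-fold higher on IMQ+DMD and in 12 of 115 (10.4%) at least 4-fold lower. Of the 7 neutrophil CXC chemokines 6 had the motif, so it was not limited to the members past 2-fold. In the list of NF-κB feedback and target genes the motif occurred in 15 of 16. That list was put together from NF-κB genes, so a high share there came from the choice of members. A match is a description of the letters and not a bound site.

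CXCL2 stood at 103 intensity units on Ctrl, 18506 on IMQ and 18550 on IMQ+DMD, a 180-fold difference (7.49 log2 units, spot-noise SD 0.22), with its probe at chr4:74962985-74963044 (hg19). On arrays of whole cultures, fewer transcribing cells and less RNA per cell cannot be told apart. CXCL3 stood at 49, 6781 and 5324 units, and CXCL1 at 274, 31206 and 27428. CXCL8, which encodes interleukin-8, stood at 315, 22531 and 23908 units, 75.8-fold above Ctrl. For these 4 chemokines the Ctrl array was far below both stimulated arrays, and the 2 stimulated arrays lay close together. CXCL6 was not well above background on Ctrl and was at least 14.5-fold higher on IMQ+DMD. PPBP and CXCL5, of the same family, were within 2-fold at 0.31 and 0.06. In all, 5 of the 7 compared members were at least 2-fold higher, against 3.04% of all genes, and none lower. The median over the 7 was 6.24 log2 units against 0.05 over all genes. A second CXCL2 probe gave 5.98 and also lists a CXCL3 transcript, and a second CXCL1 probe gave 4.68, so the size of these folds depends on the probe.

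CC chemokines, which draw monocytes, T cells and dendritic cells, were split. The brightest probe for CCL4L2, a near copy of CCL4, was 47.1-fold higher (5.56), and the gene's other probes lay between 3.21 and 5.47. CCL20 was 40.3-fold higher and CCL3 14.8-fold. The near-identical copies of CCL3 and CCL4 may share the CCL3 and CCL4L2 probes. CCL1 was 6.37-fold higher, and CCL22 at least 3.87-fold, although normexp background correction left CCL22 within 2-fold at 0.75. CCL2, the main attractant of monocytes, was at -0.65, CCL7 at -0.37 and CCL5 at 0.55, all within 2-fold. Of 17 compared members, 6 were at least 2-fold higher, against 3.04% of all genes, and none lower. Among the CXC chemokines that interferon induces, CXCL9, CXCL10 and CXCL11 were at least 2-fold lower, at -1.14, -1.33 and -1.22. CXCL12, a homeostatic chemokine of the same family, was at 3.49, with its other probes between 0.39 and 3.90.

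Chemokine receptors lay at both ends of the comparison. CCR7, which guides mature dendritic cells to lymph nodes, stood at 81.8 units on Ctrl, 12682 on IMQ and 8379 on IMQ+DMD, 102-fold higher. CX3CR1, the fractalkine receptor of resident monocytes and macrophages, (probe at chr3:39305034-39305093, hg19) stood at 14123, 428 and 295 units, 47.8-fold lower and the largest negative difference of any named gene. CXCR2, which binds the neutrophil chemokines, was lower at -2.20, as were CCR1 at -1.20 and, as a bound, CCR2, the receptor for CCL2, at -2.78. CXCR4 was at 3.15 and ACKR3 at 2.42. Over the 13 compared receptors, 5 were at least 2-fold higher and 4 at least 2-fold lower, against 3.04% and 4.83% of all genes.

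**Figure D2:**
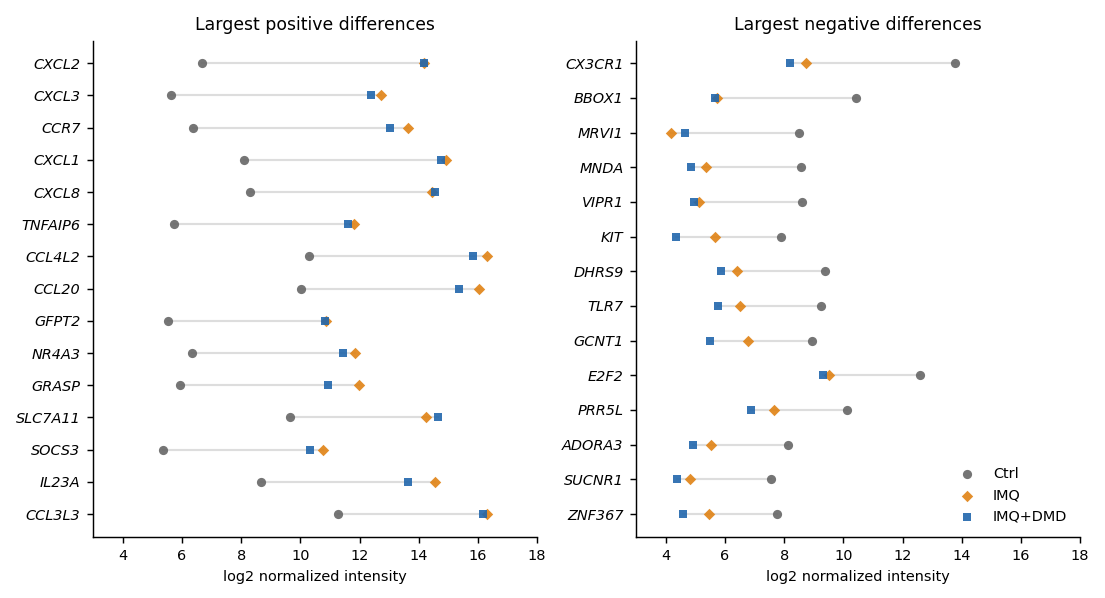
Log2 normalized intensity (x axis) on the Ctrl, IMQ and IMQ+DMD arrays for 15 genes with the largest positive and 14 with the largest negative differences between IMQ+DMD and Ctrl, 1 point per array. In both panels the IMQ+DMD square lies nearer to the IMQ diamond than to the Ctrl circle for every gene.

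Cytokine genes followed the chemokines. IL1B, the precursor of interleukin-1β, stood at 13654 units on Ctrl, 297794 on IMQ and 263566 on IMQ+DMD, 19.3-fold higher. IL23A, the p19 subunit of interleukin-23, stood at 405, 24060 and 12679 units, 31.3-fold higher than Ctrl. TNF stood at 695, 7666 and 5227 units, 7.52-fold higher. All 3 were nearer to IMQ than to Ctrl, and all 3 were lower on IMQ+DMD than on IMQ. CSF2, which encodes GM-CSF, was not well above background on Ctrl and was at least 42.4-fold higher, the largest bound. IL6 was 4.97-fold higher and IL24 4.33-fold, and IL18 was within 2-fold at -0.47. Of 17 compared proinflammatory cytokines, 11 were at least 2-fold higher, against 3.04% of all genes, and none lower. The list median was 2.11 on IMQ+DMD against Ctrl and 2.45 on IMQ against Ctrl. OSM depended on the probe, at 3.95 for the brighter on average and 0.17 for the other.

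Several genes in the list of anti-inflammatory cytokines and antagonists were higher as well. TNFAIP6, a secreted protein that binds hyaluronan and restrains neutrophil entry, was 58.7-fold higher. SOCS3, which blocks cytokine receptor signaling, was 31.4-fold higher and IL10 was at 2.42. IL1RN, the antagonist of the interleukin-1 receptor, was within 2-fold at 0.49. Of the 10 compared in this list, 4 were at least 2-fold higher, against 3.04% of all genes.

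Among the NF-κB genes, 14 of 18 were at least 2-fold higher, against 3.04% of all genes, and none lower, with a median of 2.01. NFKBIA, which encodes IκBα, was at 3.39, TNFAIP3, which encodes A20, at 2.05, and BIRC3, a ubiquitin ligase, at 3.91. The NF-κB subunits differed: REL was at 2.34, RELB at 1.56, NFKB2 at 1.48, NFKB1 at 1.27 and RELA at 0.21. Early genes of the MAP kinase arm had a median of 1.07, with 13 of 24 at least 2-fold higher, against 3.04% of all genes. Among the 13 were the nuclear receptor NR4A3 at 5.09, IER3 at 4.78 and the phosphatase DUSP1 at 3.35. That median was 0.64 with no normalization and 0.72 with spike-in scaling. SPRED1, an inhibitor of RAS signaling, was the only member 2-fold lower, at -1.99, near the 4.83% of all genes, and MYC was at -0.91. Ligands of the EGF receptor were at least 2-fold higher in 4 of 7, against 3.04% of all genes. EREG was at least 12.9-fold higher, and AREG and HBEGF were at 3.21 and 2.43.

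TLR7, the receptor for IMQ itself, stood at 605 units on Ctrl, 91.3 on IMQ and 53.8 on IMQ+DMD, 11.3-fold lower. TLR8 and TLR3, also endosomal receptors of nucleic acids, were lower as bounds, at -1.49 and -1.42, and CD14, the co-receptor for lipopolysaccharide, was at -1.21. TLR2 was at 0.96, and the kinase IRAK2 was the only one of 18 compared members at least 2-fold higher, at 3.83, near the share of 3.04% over all genes, whereas 4 were at least 2-fold lower, against 4.83%. Inflammasome sensors and adaptors were lower in 5 of 13, against 4.83% of all genes, namely AIM2 (-2.49), NLRP12 (-1.97, a bound), NLRC4 (-1.73), CASP1 (-1.16) and PYCARD (-1.14), while NLRP3 was at 0.35. No member of that list was 2-fold higher.

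Interferon-stimulated genes, which many TLR responses include, were not higher as a group. Of 36 compared, 6 were at least 2-fold lower, against 4.83% of all genes, and 1 was at least 2-fold higher, near the 3.04% of all genes. The median was -0.53 against 0.05 over all genes, and it was -0.99 with no normalization and -0.91 with spike-in scaling. USP18, a brake on interferon signaling, stood at 1430 units on Ctrl, 424 on IMQ and 363 on IMQ+DMD, and IFIT2, an RNA-binding effector, at 490, 166 and 146. Both were below Ctrl on each stimulated array. The one member that was higher was ISG20, an exonuclease, at 1.65.

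**Figure D3:**
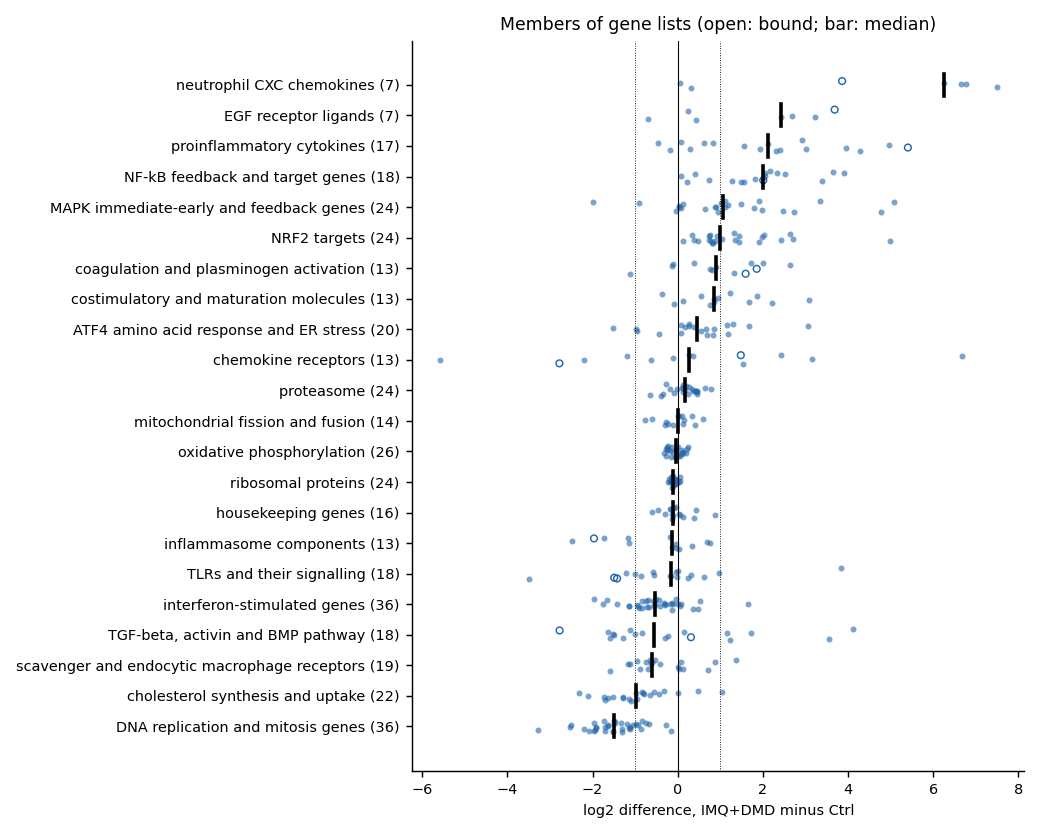
Log2 difference between IMQ+DMD and Ctrl (x axis) for the members of 22 gene lists, 1 point per gene, with the number compared in parentheses. The dotted lines mark 2-fold, open circles are bounds and the black bar is the median, which runs from 6.24 for neutrophil CXC chemokines to -1.50 for DNA replication and mitosis genes.

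Genes of DNA replication and mitosis were the list farthest on the lower side. Of 36 compared, 28 were at least 2-fold lower and none higher, against 4.83% lower among all genes, and the median was -1.50. E2F2, a transcription factor of the G1 to S transition, stood at 6133 units on Ctrl, 727 on IMQ and 628 on IMQ+DMD, 9.77-fold lower. MCM6, a subunit of the replicative helicase, stood at 13573, 4032 and 3465 units. The subunits MCM2, MCM3, MCM4, MCM5 and MCM7 lay between -1.96 and -1.52, GINS2 at -2.54, and the licensing factor CDT1 at -2.08. Among mitotic genes, BUB1B was at -1.50, CDC20 at -1.48, CDK1 at -1.32, CCNB1 at -0.85 and AURKA at -0.29. MKI67 was at -0.16 with 1 probe and -1.14 with another.

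The binding motif of E2F, searched as TTTNGCGC on both strands, occurred in 11 of the 30 list members with a promoter entry (36.7%), in 2.92% of compared genes and in 1.79% of all RefSeq promoters. The list was put together by hand from replication and mitosis genes, so a high share there came from the choice of members. Over all compared genes with an entry, the motif occurred in 7 of 115 (6.09%) at least 4-fold lower. It occurred in 6 of 123 (4.88%) at least 4-fold higher. The 3 stretches below were chosen after their matches were seen, to show how the motif lies, and give 120 bases before the start (GRCh38.p14) with the matches in capitals.
E2F1 (chr20:33686386-33686505, minus strand): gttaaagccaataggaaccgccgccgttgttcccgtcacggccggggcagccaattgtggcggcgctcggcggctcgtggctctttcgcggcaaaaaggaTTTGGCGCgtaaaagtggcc
E2F2 (chr1:23531234-23531353, minus strand): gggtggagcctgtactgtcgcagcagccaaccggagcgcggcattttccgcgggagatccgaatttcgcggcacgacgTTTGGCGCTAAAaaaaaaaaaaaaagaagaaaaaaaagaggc
MCM6 (chr2:135876444-135876563, minus strand): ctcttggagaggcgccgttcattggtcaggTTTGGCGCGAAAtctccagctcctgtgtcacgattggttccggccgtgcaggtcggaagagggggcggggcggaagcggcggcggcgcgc
In E2F2 and MCM6, matches on the opposite strands overlapped, so the capitals run longer than the motif. E2F1 was at -1.72 and its match lay within 20 bases of the start.

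Genes of cholesterol synthesis and uptake were next. Of 22 compared, 10 were at least 2-fold lower, against 4.83% of all genes, and 1 was higher, near the 3.04% of all genes. The median was -0.97. MVK, mevalonate kinase, stood at 6542 units on Ctrl, 1951 on IMQ and 1963 on IMQ+DMD. FDFT1, squalene synthase, stood at 13093, 5384 and 5359 units, and SC5D, a sterol desaturase, at 235, 56.9 and 54.8. These 3 genes were lower on both stimulated arrays, which lay close together. SQLE was at 0.00, and INSIG1, which retains the SREBP activator in the endoplasmic reticulum, was the single member higher, at 1.05. Among LXR targets, the cholesterol exporter ABCA1 was at 1.61 and lipoprotein lipase (LPL) at -1.12, and 10 of 12 were within 2-fold.

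**Figure D4:**
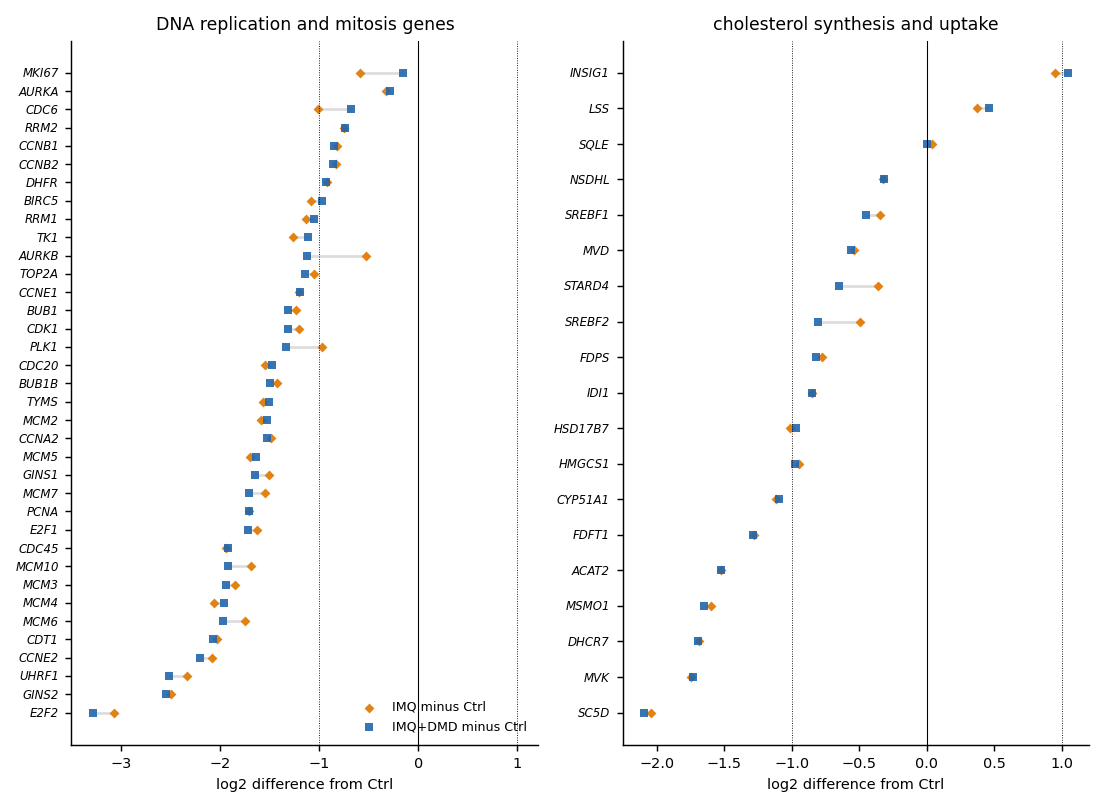
Log2 difference from Ctrl (x axis) for the 36 compared members of the DNA replication and mitosis list (left) and 19 of the 22 of the cholesterol list (right), with IMQ+DMD as squares and IMQ as diamonds, both against the same Ctrl array. Over all compared members the medians are -1.50 and -0.97 for IMQ+DMD and -1.49 and -0.98 for IMQ.

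NRF2 targets were higher on IMQ+DMD, with 12 of 24 at least 2-fold higher and none lower, against 3.04% higher among all genes. The median was 0.98 on IMQ+DMD against Ctrl and 0.59 on IMQ against Ctrl. SLC7A11, the cystine importer, stood at 807 units on Ctrl, 19362 on IMQ and 25453 on IMQ+DMD, 31.6-fold higher. SRXN1, which repairs oxidized peroxiredoxins, stood at 2558, 9570 and 16567 units, and TXNRD1, thioredoxin reductase, at 608, 2321 and 3802. HMOX1, heme oxygenase 1, stood at 45882, 104742 and 171151 units. In these 4 genes the order was Ctrl, IMQ, IMQ+DMD. Glutathione reductase (GSR) was at 1.31 and NQO1 at 1.04, while GCLM and GCLC, the subunits that make the glutathione precursor, were within 2-fold at 0.93 and 0.80. AKR1C1 was at 2.42, with its other probes at 1.27 and 0.52. The list median was 0.51 with no normalization between arrays and 0.59 with spike-in scaling.

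The TGF-β, activin and BMP list was mixed, with 5 of 18 at least 2-fold higher and 8 at least 2-fold lower, against 3.04% and 4.83% of all genes. The ligands BMP6 and INHBA were at 4.11 and 3.56, and the inhibitors SKIL and SMAD7 at 1.73 and 1.22. BMP4 was lower as a bound at -2.78, the receptors TGFBR1 and TGFBR2 were at -1.63 and -1.30, and the ligands TGFB2 and BMP2 at -1.60 and -1.51. On IMQ against the same Ctrl array, 6 were higher and 4 lower.

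**Figure D5:**
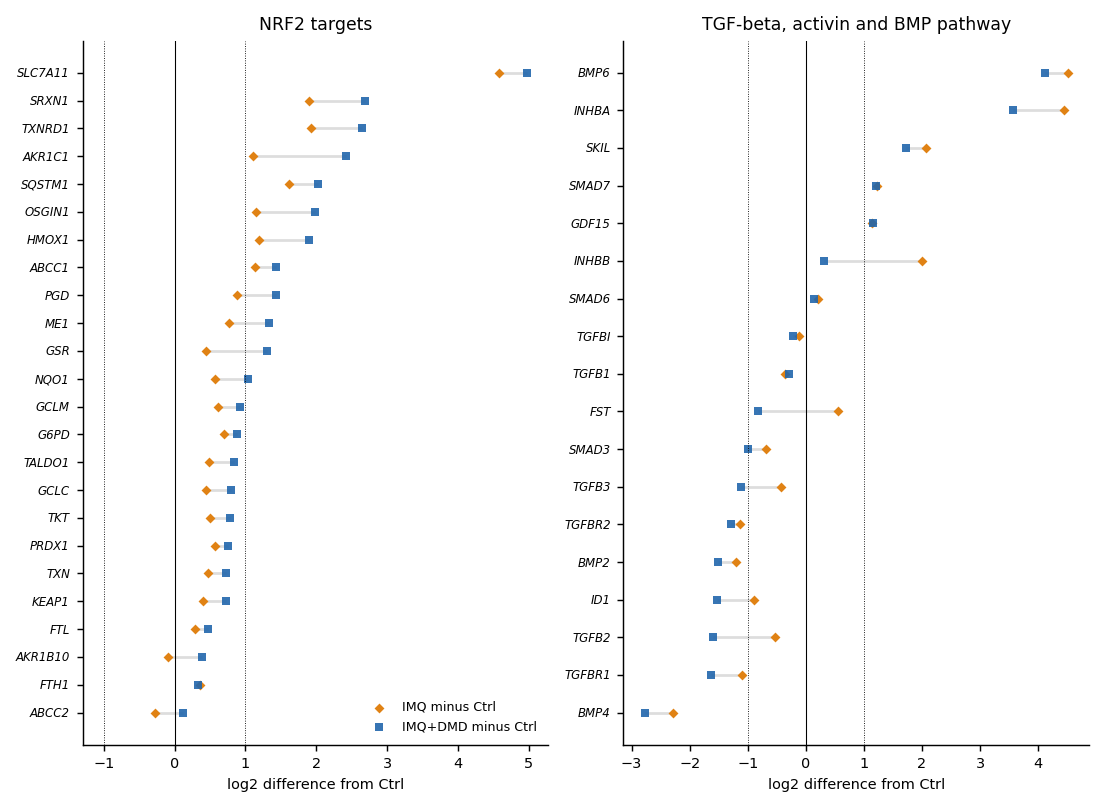
Log2 difference from Ctrl (x axis) for each compared member of the NRF2 list (left) and the TGF-β, activin and BMP list (right), with IMQ+DMD as squares and IMQ as diamonds, both against the same Ctrl array; BMP4 and INHBB are bounds. The NRF2 medians are 0.98 for the squares and 0.59 for the diamonds.

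Macrophage surface genes were mostly within 2-fold. The scavenger and endocytic receptors had a median of -0.61, with 12 of 19 below 0. It was -0.96 with no normalization and -0.88 with spike-in scaling. Of these receptors, 3 were at least 2-fold lower, against 4.83% of all genes, namely SIGLEC1 (-1.59), STAB1 (-1.17) and CD163 (-1.13). OLR1 (1.36) alone was higher, near the 3.04% of all genes. Antigen presentation genes had a median of 0.13, which was -0.22 with no normalization and -0.15 with spike-in scaling. HLA-DMB alone of 17 was past 2-fold, at -1.10, near the 4.83% of all genes. Costimulatory and maturation molecules were at least 2-fold higher in 5 of 13, against 3.04% of all genes, including LAMP3 at 3.09, CD86 at 2.22 and CD40 at 1.87. Of 15 kynurenine, arginine and itaconate enzymes, 6 were at least 2-fold higher, against 3.04% of all genes. Only 1 was lower, near the 4.83% of all genes, and 8 were within 2-fold, with a median of 0.51. The higher ones included the tryptophan-degrading enzymes IDO1 at 4.10, KYNU at 3.26 and IDO2 at least 10.0-fold, and the lower one was NOS2 at -1.55.

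Some lists with members past 2-fold are not described here. An example is coagulation and plasminogen activation, with 6 of 13 higher and 1 lower, against 3.04% and 4.83% of all genes. Of the 50 lists, 6 held no member past 2-fold in either direction. These were mitochondrial fission and fusion (14 compared), oxidative phosphorylation (26), ribosomal proteins (24), proteasome (24), heat shock chaperones (14) and housekeeping genes (16), with medians between -0.11 and 0.18. With no normalization and with spike-in scaling the medians of all 6 lists were below 0. GDAP1L1, a fission factor that the study followed, was at -0.28 with a spot-noise SD of 0.29 for 1 probe. Its second probe was not well above background on Ctrl or IMQ+DMD, so it gave no fold between them. On IMQ that probe was well above background at 8.56 log2 units, at least 4.52 above Ctrl, against 3.42 on IMQ+DMD. The 2 probes of the gene therefore differed on IMQ, where the first was at -0.10 from Ctrl.

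Outside the lists described above, the leading genes on the higher side included GFPT2, an enzyme of hexosamine synthesis, at 39.9-fold, and the scaffold gene GRASP, now TAMALIN, at 31.9-fold. On the lower side, BBOX1, the last enzyme of carnitine synthesis, was 27.2-fold lower, the receptor tyrosine kinase KIT 11.7-fold, and the adenosine receptor ADORA3 9.31-fold. BBOX1 stood at 1367 units on Ctrl, 53 on IMQ and 50.3 on IMQ+DMD. KIT stood at 239, 50.9 and 20.5 units. Both were high only on Ctrl, and the lowest values lie near the floor of the array, where repeated spots differ most.

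The genes below stood apart from Ctrl on IMQ+DMD while lying within 0.5 log2 units of it on IMQ. They come from the 8 largest differences each way, and other genes met the same rule. MT1X, for example, was at -1.15 on IMQ+DMD and -0.23 on IMQ. SDF2L1, a chaperone cofactor of the endoplasmic reticulum, stood at 38915 units on Ctrl, 29037 on IMQ and 13654 on IMQ+DMD (-1.51, spot-noise SD 0.05). PRKAG1, a regulatory subunit of AMP-activated kinase, stood at 428, 460 and 157 units (-1.45), and TAGLN2, an actin-binding protein, at 13790, 9931 and 5314 (-1.38). The complement gene C1QA was at -1.61 and the metallothionein MT1M at -1.36. On the higher side, JAKMIP3 stood at 29.1, 35 and 121 units (2.06), SNORA65, a small nucleolar RNA, at 497, 677 and 1133 (1.19), and the lysosomal cystine transporter CTNS at 64.7, 85.1 and 159 (1.30). These genes were chosen for this pattern, so it is a description. JAKMIP3, CTNS and C1QA were dim, and normexp background correction left them within 2-fold at 0.98, 0.81 and -0.66. With no normalization CTNS and SNORA65 were within 2-fold at 0.96 and 0.72, and spike-in scaling left SNORA65 at 0.80.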

How the data were processed

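RNA from THP-1 macrophages was hybridized to 1 one-color array per condition, all on 1 slide. The authors deposited the scanner output (Feature Extraction 10.5.1.1) and a table with a raw and a quantile-normalized intensity per probe. Log2 of the deposited normalized intensity was used, joined by probe to the scanner marks, and no value column was left unused. The chromosomal annotation of the array is hg19. A probe not well above background took the higher of its value and the lowest value above background, so its fold is a bound. Probes with all spots outlier-marked were left out. A gene was read from its compared probe with the highest mean log2 over the arrays. Spot noise came from 300 probes with 10 spots.

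The genes and gene lists were chosen with earlier results of these data known. Genes were named as the 15 largest and 15 smallest differences whose measured probes were all past 2-fold, the 5 largest bounds each way, list members past 2-fold or at a list's extreme, genes the study measured by RT-qPCR, and 8 each way within 0.5 log2 units of Ctrl on IMQ; some other list members were named after their values were seen. Array names absent from RefSeq were not named, and some genes are not reported here. The script was tested on simulated data. Python 3.11.15, numpy 2.4.6, pandas 2.3.3, R 4.3.3 and limma 3.58.1 were used.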

Additional observations from a re-analysis of the deposited data

Results flagged for a closer look

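CTSZ, which encodes the lysosomal protease cathepsin Z, lay on opposite sides of Ctrl on the treated arrays, at 1.23 on IMQ+DMD and -0.14 on IMQ, and this difference was not tested. Its second probe was at -0.46 on IMQ+DMD and -0.51 on IMQ, so the probes of the gene disagree.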

How the results depend on the processing

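No paired analysis was possible because each condition had 1 array. Probes at least 2-fold higher and lower numbered 672 and 4510 with no normalization, 782 and 3809 with spike-in scaling, 647 and 982 with normexp background correction (offset 50), 3057 and 3827 with no filter or floor, 4270 and 5206 at 1.5-fold, and 269 and 278 at 4-fold. With own quantile normalization, 75th percentile scaling, outlier-marked spots kept, or only probes above background on both arrays, both counts stayed within 1.5 times those reported. None of the 65 genes changed direction in any of 585 recomputed values. Most of the 65 were chosen for large differences in these same values, so few could have reversed. Of 450 recomputed medians of 50 gene lists, 411 kept their direction, and no list median past 2-fold reversed. Of the genes past 2-fold, 12 were not with normexp, 5 with no normalization and 4 with spike-in scaling, and the normexp offset compresses dim probes by construction. Apart from CCL22, all of them were from the set chosen to lie within 0.5 log2 units of Ctrl on IMQ. NFIB, past 2-fold as reported, was at 0.36 when averaged over its compared probes. Repeated spots differed by an SD of 0.05 at log2 levels of 9 to 10 and 0.20 at 5 to 6, which limits dim genes.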
